A study of Zea mays with 30 samples.

Results

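*TCTP* of maize (gene ID 541981) encodes translationally controlled tumor protein, and it was measured at 31 of the 49280 spots of 3 two-colour cDNA chips. Every spot whose platform annotation named *TCTP*, by symbol or synonym, was taken. That gave 16 probes of 19200 on the chip SAM 1.1, 6 of 14080 on SAM 2.0 and 9 of 16000 on SAM 3.0. Of 866 named genes, *TCTP* was number 6 by its count of probes. The gene was chosen by name after the signals and ratios of its probes had been seen in these data. Its signal levels are therefore given as a description with no test. The tests of its ratio use values that were seen before the choice, so their *p* values describe these data only.

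TCTP is a small, highly conserved and abundant protein that is linked to growth in both plants and animals. In *Arabidopsis*, loss of the gene slows growth, and a role upstream of the target of rapamycin (TOR) kinase, a central regulator of translation and growth, has been proposed in flies and plants. In animals the protein binds translation elongation factors, small GTPases and microtubules. The protein is named for the control of its own mRNA at translation, so that an mRNA ratio is not a protein ratio.

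The samples were shoot apical meristems (SAMs) cut by laser microdissection from seedlings 2 weeks after germination. ns mutant seedlings (genotype *ns1-R* and *ns2-R*) were compared with nonmutant siblings (*Ns1/ns1-R* and *ns2-R*) of the near-isogenic ns 1:1 line. Both kinds of seedling therefore carried the *ns2-R* mutation, and the genotypes differed by one functional copy of *narrow sheath1* (*ns1*), a WOX homeobox gene that acts at the margins of the initiating leaf. Each replicate pooled several whole SAMs, and their RNA was amplified in 2 rounds and labelled with Cy3 or Cy5.

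Each array set 1 ns sample against 1 nonmutant sample. There were 6 arrays per chip, with ns RNA in Cy5 on 3 of them and in Cy3 on the other 3. The numbers 1 to 6 recur on the 3 chips. Over the genes that 2 chips shared, the deviations of same-numbered arrays correlated with a median *r* of 0.17 to 0.22, against -0.06 to -0.03 for arrays of different number, and 5 of 6 arrays lay nearest to their own number in each pair of chips. The 3 chips are therefore not counted as independent samples of ns and nonmutant SAMs, and no estimate of the ns ratio was pooled over them. Only the correlations of *TCTP* with other genes, given below, were taken over the arrays of all 3 chips. Median signal over local background per array was 2.94 to 10.7 for the first chip, 2.60 to 7.84 for the second and 2.52 to 12.8 for the third. *ns1*, which had probes on SAM 3.0 only, gave a log2 ratio of ns over nonmutant signal of -0.09 ± 0.16 (SE, n = 6 arrays; limma adjusted *p* = 0.940), so its signal gave no check of the genotype labels. *kn1*, the meristem homeobox gene, was 7.09 to 11.9 times background on the 3 chips, while the meristem genes as a list ran from 0.978 (*knox8* on SAM 2.0) to 14.3 times. Of the 3 endosperm genes, all on SAM 1.1, the storage protein genes *dzs18* and *zp27* were at 1.01 and 1.28 times background and *bt2*, a starch synthesis gene, was at 6.47 times. Among leaf photosynthesis genes, *lhcb5*, a light-harvesting protein gene, was 10.8 times background on SAM 1.1 and 3.72 times on SAM 2.0, and the photosynthesis genes measured ran from 0.993 to 10.8 times background over the 3 chips. The log2 ratio of *lhcb5* was 0.14 ± 0.11 and 0.06 ± 0.12 on these chips (SE, n = 6 arrays each; limma adjusted *p* = 0.836 and 0.952). The highest log2 ratio among the photosynthesis genes was that of *Ppdk1* on SAM 2.0, at 0.28 ± 0.14 (SE, n = 6 arrays; limma adjusted *p* = 0.780) and 2.61 times background. The part of leaf RNA in the *TCTP* values was not tested.

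Most *TCTP* probes were among the bright spots of their chip. Signal here is the mean log2 signal of both channels over the 6 arrays, and rank 1 is the brightest spot. On SAM 1.1 the brightest *TCTP* probe was 135 (cDNA CB885699 and CB885700) at rank 119 of 19200, followed by probe 19091 (DV942675) at rank 167. On SAM 2.0 the brightest was probe 3022 (DY396541) at rank 125 of 14080. On SAM 3.0 probes 13724 (DN203689), 1096 (DN207481) and 3419 (DN203592) held ranks 112, 123 and 134 of 16000. At the 90th percentile or above lay 8 of the 16 probes of SAM 1.1, 4 of the 6 of SAM 2.0 and 6 of the 9 of SAM 3.0.

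Some of the remaining probes reached far down the range on SAM 1.1 and SAM 3.0, while those of SAM 2.0 stayed above the chip median. Probe 4114 (CB815614 and CB815615) of SAM 1.1 had rank 15933 and was 1.45 times background in ns and 1.51 times in nonmutant samples. The dimmest probe of SAM 2.0, 4193 (DY576675), had rank 5839, and that of SAM 3.0, 9428 (DN224987), had rank 10972. None of the 31 probes fell to or below background in any scan. From the dimmest to the brightest *TCTP* probe the signal spanned at least 70.3-fold on SAM 1.1, 13.03-fold on SAM 2.0 and 32.9-fold on SAM 3.0, although all were annotated to 1 gene. These are lower bounds, since the brightest probe was saturated in 2 of 6, 1 of 6 and 3 of 18 scans. A spot's signal depends on the length and amount of its cDNA as well as on the RNA, and a cDNA can also bind RNA of close gene copies, so the rank orders spots by signal and is no measure of transcript number.

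**Figure D1:**
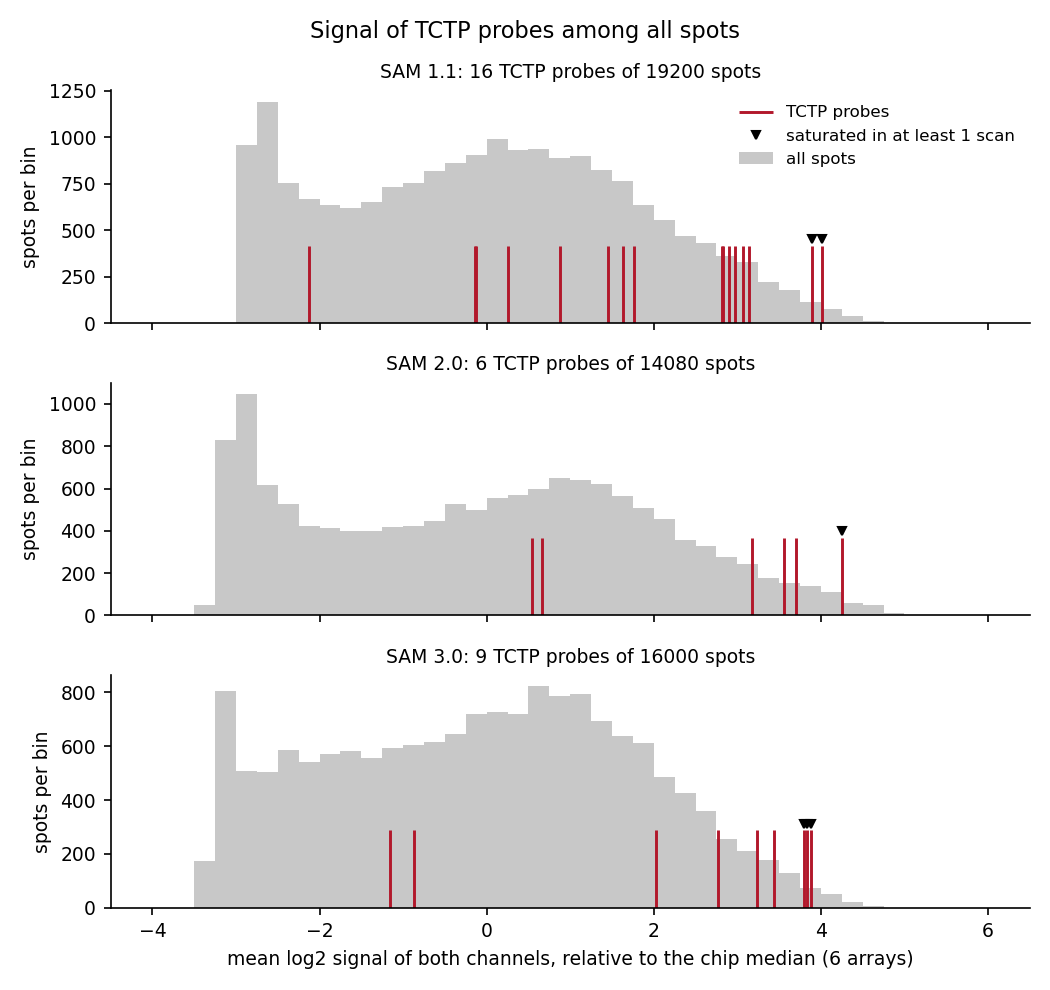
Histograms of the mean log2 signal of all spots relative to the chip median (x axis) against the number of spots per bin (y axis), for each chip, with a red line at each *TCTP* probe and a black triangle over probes that saturated in at least 1 scan. The 31 probes run from below the chip median to the bright end, with the brightest at ranks 119, 125 and 112.

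The mean over all *TCTP* probes of a chip lay at the 83.3rd, 90.4th and 90.2nd percentile of spots on the 3 chips in turn. Single arrays of SAM 1.1 gave 78.0 to 85.5, those of SAM 2.0 gave 87.2 to 92.4 and those of SAM 3.0 gave 85.5 to 93.7. The high place of *TCTP* was thus found on every array. In the ns channel alone the percentile was 77.2 to 84.9, 86.6 to 91.3 and 84.9 to 93.7, and in the nonmutant channel it was 78.3 to 87.2, 87.4 to 93.8 and 86.0 to 93.7. The ranges overlapped on each chip, and within arrays the ns percentile was the lower one in 5 of 6 arrays on each chip.

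The ratio of ns to nonmutant signal addresses whether the level of *TCTP* RNA differed between the meristems of the 2 genotypes. The ratio of the gene is the mean log2 ratio of its probes, relative to the median of all spots. On SAM 1.1 it was -0.25, -0.07, -0.27, -0.12, 0.01 and -0.07 in replicates 1 to 6. All but replicate 5 were below 0, and replicates 1 and 3 were lowest. On SAM 2.0 it was -0.20, -0.18, -0.49, -0.09, -0.03 and -0.03. All 6 were below 0, with replicate 3 far under the others. On SAM 3.0 it was -0.21, -0.03, -0.44, -0.05, -0.01 and -0.08. Again all 6 were below 0, and replicate 3 was lowest.

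**Figure D2:**
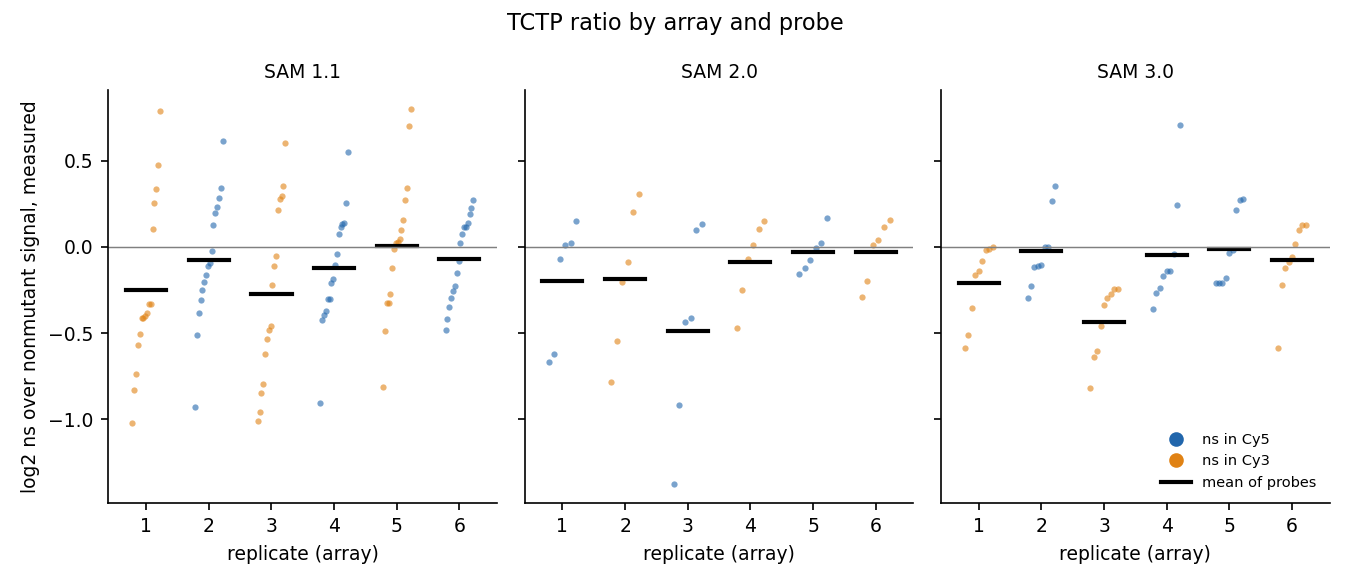
Measured log2 ratio of ns to nonmutant signal (y axis) in each replicate array (x axis) of the 3 chips, with each *TCTP* probe as a point, blue where ns RNA was in Cy5 and orange where it was in Cy3, and the mean of the probes as a black bar. The means lie between -0.49 and 0.01, and replicate 3 has the lowest mean on each chip.

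The linear model, which takes out a dye effect, gave a log2 ratio for SAM 1.1 of -0.13 ± 0.10 (SE, n = 6 arrays; limma adjusted *p* = 0.836 over 17983 features). The 95% confidence interval of the log2 ratio ran from -0.36 to 0.10. On SAM 2.0 the log2 ratio was -0.17 ± 0.13 (SE, n = 6 arrays; limma adjusted *p* = 0.83 over 13704 features), with an interval from -0.44 to 0.10. On SAM 3.0 it was -0.13 ± 0.08 (SE, n = 6 arrays; limma adjusted *p* = 0.885 over 15439 features), with an interval from -0.30 to 0.03. As ratios the estimates were 0.914, 0.890 and 0.911, and none passed the test, nor do the intervals show equal levels. The adjusted threshold was passed by 0.00556% of features on SAM 1.1, 0.0365% on SAM 2.0 and 0.013% on SAM 3.0, so that few genes of any kind passed it.

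An exact two-sided permutation test over the 20 assignments of the 6 arrays to the dye orientations gave *p* = 0.1 on each chip, which is the smallest value this design allows. The ratios had been seen before the gene was chosen, and the chips are not independent samples. Neither this value nor its recurrence on each chip therefore counts as separate evidence of a difference. With the fitted dye effect taken out, the ratio was below 0 in 5 of 6 arrays on each chip. Against the other features of the chip, 20.4% had a lower ratio than *TCTP* on SAM 1.1, 14.4% on SAM 2.0 and 8.89% on SAM 3.0. By the methods' t-test, the ordinary regression on the same values, the unadjusted *p* was 0.0459, 0.0748 and 0.0627 on the chips in turn, without the variance shared over features, and the Benjamini-Hochberg adjusted *p* was 0.888, 0.893 and 0.928 (regression on 4 residual degrees of freedom, given beside the exact test above).

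Without replicate 3 the log2 ratios became -0.11, -0.11 and -0.09, the smallest size on each chip among the fits that left out 1 replicate. On SAM 2.0 and SAM 3.0 this is a change of over 1.5 times, and no call changed with it.

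Probe by probe, the ns level was lower at 12 of 16 probes of SAM 1.1, 4 of 6 of SAM 2.0 and 9 of 9 of SAM 3.0. Over all spots of the chips 54.4%, 49.1% and 50.4% were lower in ns. The probes of a chip share their RNA, arrays and gene, so their signs are not separate observations. No *TCTP* probe passed limma's adjusted threshold, which 0.0104%, 0.0355% and 0.0125% of the spots of the 3 chips passed. At an unadjusted limma *p* under 0.05, 5 probes of SAM 1.1, 2 of SAM 2.0 and 1 of SAM 3.0 were counted, all of them lower in ns. The same rule, with the direction lower in ns, was met by 2.92%, 3.27% and 2.62% of all spots. By the methods' t-test 4, 0 and 1 probes had an unadjusted *p* under 0.05, as had 5.52%, 4.99% and 4.69% of spots, and none passed after adjustment. None met the selection thresholds of the study's methods on *p* and fold change, which 0.0677%, 0.192% and 0.0687% of spots met.

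On SAM 1.1 the lowest ratio was at probe 10019 (CA989109 and CA998660). It measured -0.41, -0.20, -1.01, -0.42, -0.49 and 0.08 in replicates 1 to 6. In these measured values replicate 3 was far below the rest and replicate 6 alone was above 0. With the dye effect taken out all 6 were below 0, with replicate 3 at -0.79 and replicate 4 at -0.65. The fitted log2 ratio was -0.41 ± 0.12 (SE, n = 6 arrays; limma adjusted *p* = 0.830). The next lowest was probe 7226 (CB330963 and CB334492) at -0.37 ± 0.17, a bright spot at rank 1092.

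The highest ratio on SAM 1.1 was at probe 13020 (DV494732), with 0.25, -0.03, 0.21, -0.30, 0.80 and -0.42. Its sign followed the dye, since it was positive in the replicates 1, 3 and 5, where ns was in Cy3, and negative in the others. The fitted log2 ratio was 0.09 ± 0.12 (SE, n = 6 arrays; limma adjusted *p* = 0.892). The brightest probe, 135, gave -0.41, 0.20, 0.30, 0.11, 0.03 and -0.23. Its arrays straddled 0, with a fitted log2 ratio that rounds to 0 (-0.0006 ± 0.13, SE, n = 6 arrays; limma adjusted *p* = 0.999), and it saturated in 2 of 6 scans.

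On SAM 2.0 the lowest ratio was at probe 4599 (DY576689), with -0.62, -0.55, -1.38, -0.25, -0.08 and -0.29. Replicate 3 was again lowest, and all 6 measured values were below 0, but with the dye effect taken out 5 of 6 were. The fitted log2 ratio was -0.53 ± 0.16, a ratio of 0.694 (SE, n = 6 arrays; limma adjusted *p* = 0.490). Probe 4193, the dimmest of this chip, gave -0.35 ± 0.16. The highest was probe 4608 (DY396798), with 0.02, 0.20, 0.13, -0.07, -0.01 and 0.11. These values lay close to 0 on every array, and the fitted log2 ratio was 0.06 ± 0.13 (SE, n = 6 arrays; limma adjusted *p* = 0.954). The brightest, probe 3022, gave -0.07, -0.09, -0.41, 0.01, 0.17 and -0.20. It was lowest in replicate 3 and had a fitted log2 ratio of -0.10 ± 0.13 (SE, n = 6 arrays; limma adjusted *p* = 0.923).

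On SAM 3.0 probe 13724 was at once the brightest and the highest in ratio, with -0.51, 0.27, -0.46, 0.24, 0.22 and -0.06. The 3 arrays with ns in Cy5 were positive and the 3 with ns in Cy3 negative. With the dye effect taken out, the fitted log2 ratio was -0.05 ± 0.08 (SE, n = 6 arrays; limma adjusted *p* = 0.938). The lowest was probe 11826 (DN225082), with -0.35, -0.12, -0.64, -0.14, -0.21 and 0.10. It was below 0 on all arrays but replicate 6, and its fitted log2 ratio was -0.23 ± 0.10 (SE, n = 6 arrays; limma adjusted *p* = 0.879).

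The count of probes below 0 on all 6 arrays depended on the dye term. In the measured ratios it was 0 of 16 on SAM 1.1, 1 of 6 on SAM 2.0 (probe 4599) and 2 of 9 on SAM 3.0 (probes 1096 and 3959, the latter DN222581), where 1.21%, 1.13% and 1.46% of all spots were below 0 throughout. With the dye effect taken out it was 4 of 16 (probes 2038, 4678, 6017 and 10019), 0 of 6 and 1 of 9 (probe 3959), where 3.72%, 2.57% and 2.98% of spots were. Only probe 3959, with a fitted log2 ratio of -0.16 ± 0.08, was counted both ways.

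The 9 probes of SAM 3.0 gave nearly the same ratio, and those of SAM 1.1 and SAM 2.0 did not. Fitted log2 ratios lay between -0.23 and -0.05 on SAM 3.0, while SAM 1.1 had a range of -0.41 to 0.09 and SAM 2.0 one of -0.53 to 0.06. Their SD over probes was 0.0514 on SAM 3.0, under the median SE of a probe of 0.0828. On SAM 1.1 the SD was 0.153 against a median SE of 0.125, and on SAM 2.0 it was 0.226 against 0.133. Fitted ratios of single spots of the whole chip spread with SDs of 0.160, 0.178 and 0.107, in the order of the chips. This background too was narrowest for SAM 3.0, and *TCTP* probes spread more widely than it for SAM 2.0 only. Probes of a chip share arrays, so the SE of a probe is only a guide to the spread expected between them.

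Other genes with at least 5 probes give the usual spread on each chip. On SAM 1.1 the 87 other genes had a median SD of 0.114, and 75 of them were below *TCTP*. On SAM 2.0 the 11 other genes had a median of 0.127, and 10 of them were below *TCTP*. On SAM 3.0 the 29 other genes had a median of 0.0753, and 7 of them were below *TCTP*. The probes of *TCTP* therefore differed more than those of most such genes on SAM 1.1 and SAM 2.0 and less than those of most on SAM 3.0, as a description with no test. With each replicate left out in turn, 55 to 79 of the 87 genes, 8 to 11 of the 11 and 4 to 8 of the 29 lay below *TCTP*. The SD moved by over 1.5 times without replicate 1 on SAM 1.1, to 0.237, and without replicate 3 on SAM 2.0, to 0.146.

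**Figure D3:**
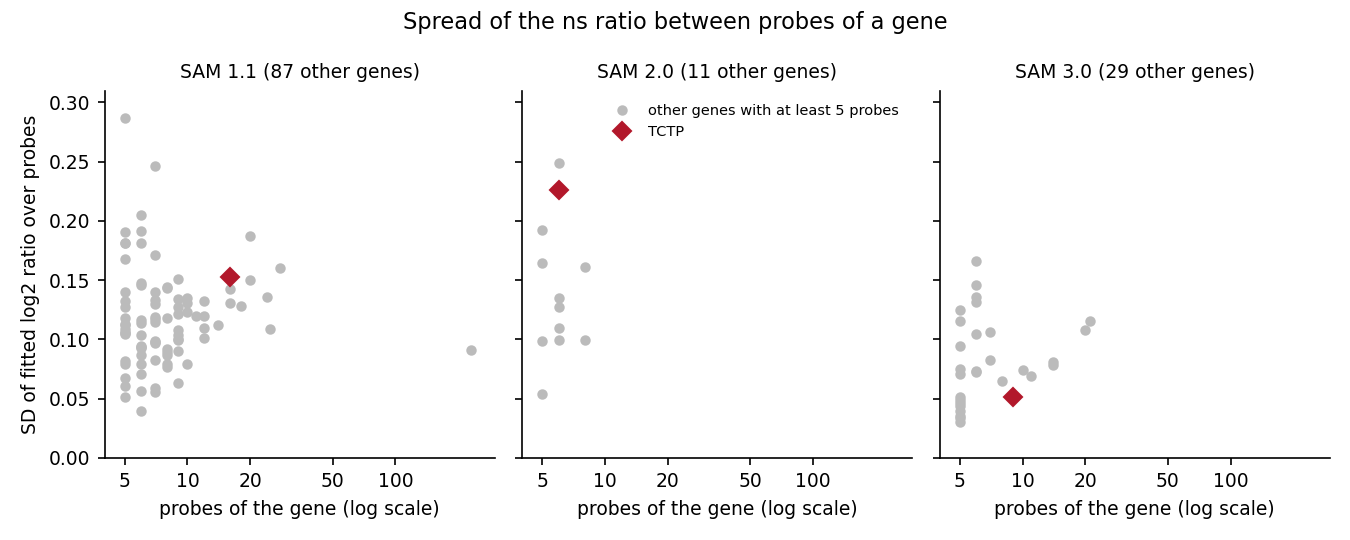
SD of the fitted log2 ratio over the probes of a gene (y axis) against its number of probes (x axis, log scale) for *TCTP* (red diamond) and the other genes with at least 5 probes on each chip (grey points). *TCTP* lies above 75 of 87 genes on SAM 1.1, 10 of 11 on SAM 2.0 and 7 of 29 on SAM 3.0.

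On single arrays the spread between *TCTP* probes reached higher on SAM 1.1 and SAM 2.0 than on SAM 3.0, although the ranges of SAM 1.1 and SAM 3.0 overlapped. With the dye effect taken out, the SD of the log2 ratio between *TCTP* probes on 1 array spanned 0.118 to 0.533 for SAM 1.1, 0.177 to 0.565 for SAM 2.0 and 0.101 to 0.173 for SAM 3.0. On SAM 1.1 and SAM 2.0 replicate 3 had the widest spread. Across the 6 arrays of a chip, the median correlation between 2 *TCTP* probes was 0.08 on SAM 1.1 (120 pairs, from -0.97 to 0.99), -0.26 on SAM 2.0 (15 pairs) and 0.50 on SAM 3.0 (36 pairs). For the other genes with at least 5 probes the median was 0.25, 0.14 and 0.39. A lower median than that of *TCTP* was found in 30 of 87, 1 of 11 and 16 of 29 of these genes on the chips in turn. Single pairs of SAM 2.0 ran from -0.70 to 0.92 and those of SAM 3.0 from -0.38 to 0.91, so that each chip had pairs of either sign. Each pair rests on 6 arrays, and these values are the extremes of many pairs. They therefore cannot show that *TCTP* probes were related, and the low medians do not show that they were unrelated. Whether the probes form groups was not tested.

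The 6 arrays of SAM 3.0 were each scanned at low, mid and high settings. The ratio of the gene was -0.13 ± 0.09 in the low scans, -0.13 ± 0.10 in the mid scans and -0.14 ± 0.09 in the high scans (SE, n = 6 arrays each; limma adjusted *p* = 0.819, 0.991 and 0.886). Saturated *TCTP* probes numbered 0, 2 and 3 of 9 in these scans. The SD between probes was 0.0649, 0.0628 and 0.0946, widest in the scans that saturated the most. In the high scans alone probe 13724, the one with the most saturated scans, had a log2 ratio of 0.04, above 0, so 8 of 9 probes were lower in ns there and 9 of 9 in the low and mid scans.

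The ratio differed between bright and dimmer *TCTP* probes in the same direction on each chip, a split made at the 90th percentile of signal after the values were seen. On SAM 1.1 the median log2 ratio was -0.03 over the 8 bright probes and -0.20 over the 8 dimmer ones. On SAM 2.0 it was -0.05 over 4 bright probes and -0.44 over 2 dimmer ones, and on SAM 3.0 it was -0.12 over 6 and -0.18 over 3. The ranges overlapped on SAM 1.1 and SAM 3.0 and did not on SAM 2.0.

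Array by array, with the dye effect taken out, the median of the dimmer probes lay below that of the bright probes in 6 of 6 arrays on SAM 1.1, 6 of 6 on SAM 2.0 and 4 of 6 on SAM 3.0. On SAM 2.0 the gap was widest in replicate 3, at -1.06, and smallest in replicate 6, at -0.13. Without replicate 3 the differences of medians for the 3 chips were -0.10, -0.25 and -0.01, against -0.17, -0.39 and -0.06 with it. On SAM 3.0 the difference thus rested largely on that replicate. On SAM 1.1 it was also -0.10 without replicate 2 or replicate 5, and -0.33 without replicate 1. Spearman's rho of ratio against signal was 0.30 over the 16 probes, 0.54 over the 6 and 0.35 over the 9. Over all spots of the chips rho was 0.07, 0.02 and -0.009. Loess is fitted to take out a trend of ratio with signal over a whole chip, so these small values are a poor background for the *TCTP* probes. The correlations for *TCTP* are over probes that share their arrays and RNA. On SAM 1.1 signal was not the only feature that moved with the ratio, since the 5 cDNAs with accessions of the DV series had a median of -0.03 (from -0.08 to 0.09) and the other 11 had -0.20 (from -0.41 to 0.01). Whether signal, cDNA or cross-hybridization sets the difference was not tested.

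**Figure D4:**
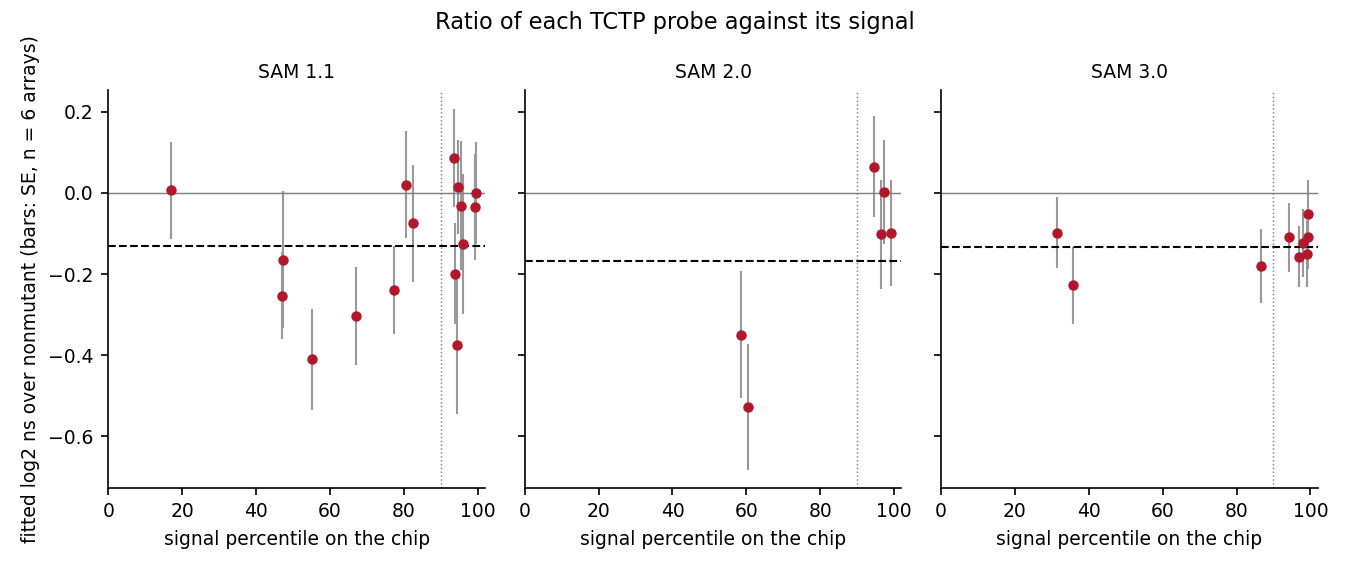
Fitted log2 ratio of ns to nonmutant signal for each *TCTP* probe (y axis, bars SE over 6 arrays) against its signal percentile on the chip (x axis). The dashed line is the mean over probes (-0.13, -0.17 and -0.13) and the dotted line the 90th percentile; the lowest ratios of SAM 1.1 and SAM 2.0 (-0.41 and -0.53) lie to its left.

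Genes whose ratio varied most like that of *TCTP* were sought among 258 named genes with a probe on all 3 chips, over 18 arrays, with dye effects and chip means taken out. The nearest was *EF1-A* (LOC542581), an elongation factor 1-alpha gene with 46 probes, at Pearson's *r* = 0.82 (0.47, 0.95 and 0.92 on the chips in turn). *sbe1*, a starch branching enzyme gene, followed at 0.79, *IPP* at 0.76, the ATP synthase subunit gene *ATPB* at 0.75 and the ubiquitin-conjugating enzyme gene *ubc7* at 0.72. The median *r* over the 258 genes was 0.04 and the 95th percentile 0.62. Leaving replicate 3 out of every chip lowered the 5 values to 0.69, 0.72, 0.49, 0.60 and 0.49 over 15 arrays. The farthest gene was *rs2* (rough sheath2), a MYB repressor of knox genes, at -0.85, and at -0.70 without replicate 3, where the ascorbate peroxidase gene *apx2* (LOC542476) was lower at -0.73. The arrays share replicate numbers over the chips, so these are fewer than 18 independent points, and *EF1-A* cDNAs can bind RNA of its close copies.

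In the gene lists that follow, values after ± are SEs over 6 arrays. Elongation and initiation factors, which include binding partners of TCTP in animals, had median log2 ratios of -0.10 over 12 genes on SAM 1.1, -0.06 over 10 on SAM 2.0 and -0.05 over 12 on SAM 3.0. The medians over all features were -0.01, 0.004 and -0.0002. On SAM 1.1 10 of the 12 were lower in ns, on SAM 2.0 7 of 10 and on SAM 3.0 8 of 12. None passed the adjusted threshold or an unadjusted *p* under 0.05 by limma. *EF1-A* itself gave -0.09 ± 0.11, -0.09 ± 0.14 and -0.03 ± 0.08 (SE, n = 6 arrays each; limma adjusted *p* = 0.890, 0.931 and 0.966), each nearer to 0 than *TCTP*. *elfa2*, another gene of this list, gave -0.20 ± 0.12, -0.08 ± 0.13 and -0.15 ± 0.09. It was farther from 0 than *TCTP* on SAM 1.1 and SAM 3.0 and nearer on SAM 2.0.

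Of the TOR pathway, 3 genes were measured on each chip, and their medians were 0.003, 0.05 and -0.12. *TOR*, the kinase itself, gave 0.003 ± 0.11, -0.06 ± 0.14 and -0.16 ± 0.11. *rps6*, which encodes ribosomal protein S6, a phosphorylation target of the pathway, gave -0.13 ± 0.11, 0.22 ± 0.13 and -0.12 ± 0.12, with its sign differing between chips. The Rop small GTPases had medians of 0.06, 0.09 and -0.01 over 5, 4 and 6 genes, and the one with the most probes over the chips, *rop4* (LOC542739), gave -0.19 ± 0.12, 0.14 ± 0.13 and -0.15 ± 0.10. On SAM 2.0 it was at 1.09 times background.

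Tubulin and actin-binding genes had medians of -0.02 over 15 genes, 0.02 over 15 and -0.03 over 11. The alpha tubulin gene *tua4*, with the most probes, gave 0.09 ± 0.12, -0.04 ± 0.13 and 0.13 ± 0.08. Cell cycle and DNA replication genes had medians of -0.13 over 10 genes, 0.0003 over 11 and -0.01 over 13. *pcna2*, the replication clamp, gave -0.22 ± 0.12, -0.18 ± 0.13 and -0.11 ± 0.07. It was below 0 on each chip, at a size like that of *TCTP*.

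The meristem genes had medians of -0.09, 0.06 and -0.05 over 5, 6 and 8 genes, with *kn1* at -0.22 ± 0.11, -0.07 ± 0.12 and -0.04 ± 0.07. Photosynthesis genes had medians of 0.04, 0.06 and 0.01 over 3, 5 and 2 genes, and the 3 endosperm genes of SAM 1.1 had a median of 0.04. Over all these lists, 56 genes were measured on SAM 1.1, 54 on SAM 2.0 and 55 on SAM 3.0. By limma none passed the adjusted threshold, and 2, 3 and 2 had an unadjusted *p* under 0.05. By the methods' t-test none passed after adjustment and 5, 5 and 7 had an unadjusted *p* under 0.05. As shares of the listed genes these are 3.57%, 5.56% and 3.64% by limma, against 5.14%, 6.44% and 5.13% of all features. By the methods' t-test they are 8.93%, 9.26% and 12.7%, against 5.39%, 5.01% and 4.69%, so that the share was above the background by one test and below it by the other. In pools of amplified RNA from whole SAMs, fewer cells with a transcript and less of it per cell cannot be told apart.

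**Figure D5:**
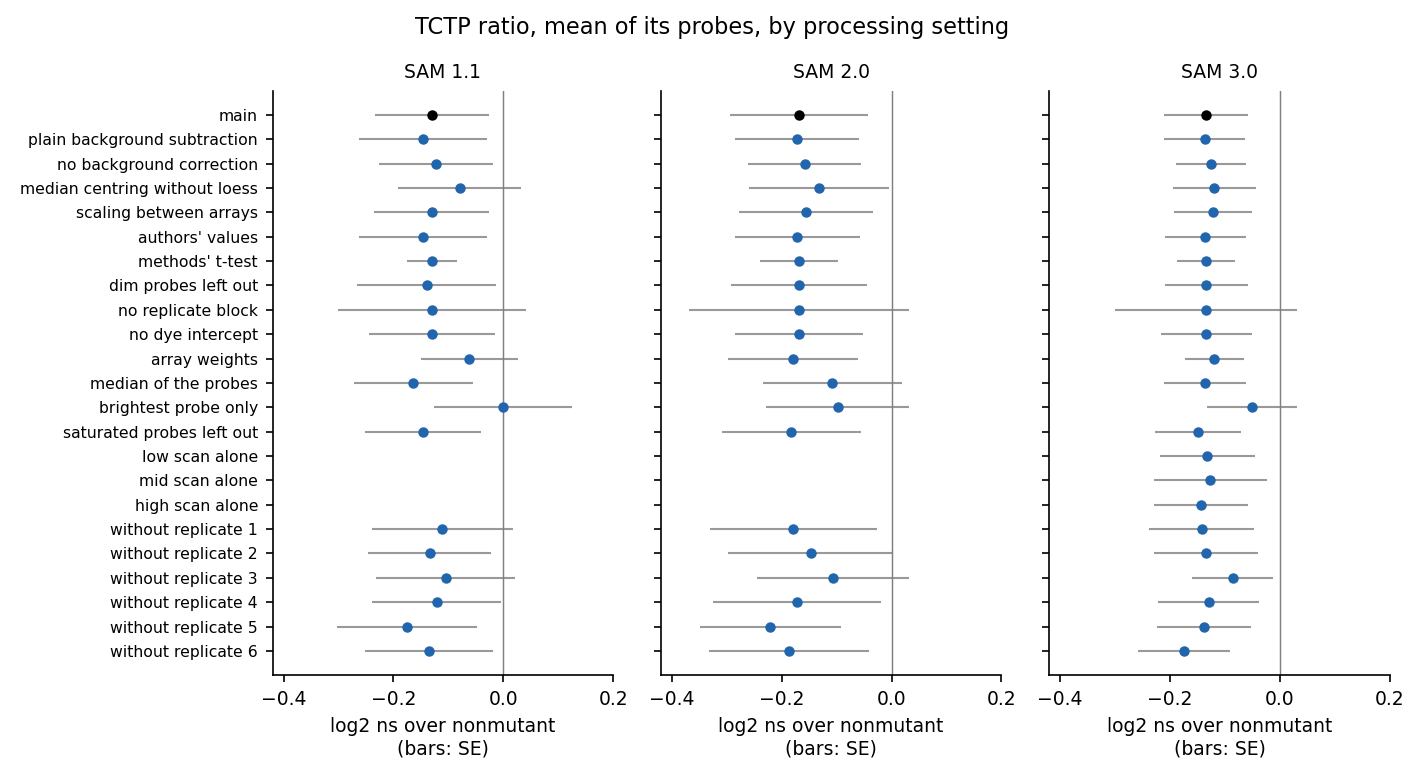
Log2 ratio of ns to nonmutant signal for *TCTP*, mean of its probes (x axis, bars SE), under each way of processing the arrays (rows) on the 3 chips, with the value of the text at the top in black. The values span -0.17 to -0.0006 for SAM 1.1, -0.22 to -0.10 for SAM 2.0 and -0.17 to -0.05 for SAM 3.0, and those nearest 0 on each chip use the brightest probe only.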

How the data were processed

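The authors deposited, for each array, the intensity of every spot and of its local background in both channels, read from scanned images, and the natural log of the channels and of their ratio after background subtraction, LOWESS and median centring. These natural log values were converted to log2 and used as an alternative. The main analysis started from the deposited intensity columns, with normexp background correction (offset 50), loess (span 0.3) and median centring of each channel. Scans of SAM 3.0 with the same replicate number were nearest to each other in 18 of 18 cases and were averaged to 1 array. A dye effect and an ns effect were fitted to the 6 arrays of a chip with limma 3.58.1 in R 4.3.3, over all spots for single probes and over all features for genes, where probes of a named gene were averaged and unnamed spots kept single, with Benjamini-Hochberg adjustment within each chip. Each array pairs an ns with a nonmutant sample. The number of arrays limits the precision. The limma fit of single spots was tested on simulated data with known log2 ratios.

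Probe names came from the platform annotation, updated through the gene table of Zm-B73-REFERENCE-NAM-5.0. Every *TCTP* probe was counted, and per chip the highest, lowest and brightest were given in full. The *TCTP* gene, the lists and the tests were chosen with earlier results of these data known, and the letter case of list names was widened after values were seen. From each list the member with the most probes was named, and *TOR* and *elfa2* were added to these after their values were seen. Other named probes and markers were chosen after their values were seen.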

Additional observations from a re-analysis of the deposited data

How the results depend on the processing

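The *TCTP* ratio kept its sign and stayed above the adjusted threshold under 19 alternatives on SAM 1.1, 19 on SAM 2.0 and 22 on SAM 3.0, with limma adjusted *p* from 0.287 to 1.00. Some of these could not change the sign. The methods' t-test and the fits with no dye intercept or no replicate block return the main estimate, since the dyes are balanced. Leaving out the dimmest spots removed no *TCTP* probe of SAM 2.0 or SAM 3.0 and returned the main estimate there. With each replicate left out in turn the log2 ratio ran from -0.17 to -0.11, from -0.22 to -0.11 and from -0.17 to -0.09. The brightest probe alone gave -0.0006, -0.10 and -0.05. With no replicate block, which ignores that the channels are paired on an array, the values were -0.13, -0.17 and -0.13, with limma adjusted *p* of at least 0.999, and no call changed. The signal percentile was 88.9, 95.5 and 97.0 by the median of the probes and 99.4, 99.1 and 99.3 by the brightest probe. The spread on SAM 3.0 was 0.0946 in the high scans.

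Among single probes the sign turned where the ratio was close to 0. Probe 135 was at 0.0054 with plain background subtraction, 0.0024 with no background correction, 0.101 with median centring and no loess, 0.0021 in the authors' values and 0.013 with array weights. With each replicate left out in turn it ran from -0.082 to 0.095, above 0 without replicate 1 and, at 0.063, without replicate 6. Probe 13020 ran from -0.0081, without replicate 5, to 0.139 with 1 replicate left out, and reached 0.22 with array weights, and probe 13724 was at 0.038 in the high scans. The bright and dimmer probe split and its alternatives were chosen after seeing the data. On SAM 1.1 its difference was -0.33 without replicate 1, and it changed sign under none of its alternatives. The causes of these changes were not tested. Saturated probes (2, 1 and 3) limit the brightest values, and leaving them out gave -0.15, -0.18 and -0.15.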
